A study of Homo sapiens with 6 samples.

Results

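The peroxin (PEX) genes encode the proteins that build peroxisomes. IMR32 cells were followed with every guide RNA (gRNA) whose gene name begins with PEX and a number. This took 68 of the 77441 gRNAs and 17 of the 19364 genes, with 4 gRNAs for each PEX gene, and all 68 were measured in every library. IMR32 is a neuroblastoma cell line with amplified MYCN, the cells of all groups expressed Cas9 and carried the genome-wide Brunello knockout library, and the screen asked which knockouts alter the response to PD-1 blockade. The groups were IMR32 cells grown alone, IMR32 cells with human lymphocytes from which CD14+ cells had been depleted, and the same coculture with 10 µg/ml nivolumab, an antibody against PD-1. Adherent cancer cells were harvested on day 5 according to the labels, although the coculture is also described as 6 days long, and each group had 2 replicate libraries, 1 from each of 2 screens. The cocultures of the 2 screens differed in lymphocyte donor and in effector-to-target ratio, which therefore cannot be told apart. The cells grown alone had no lymphocytes, and what else differed between the screens was not tested. Screen 1 and screen 2 stand for replicates 1 and 2. Where a pair of values is given for a group, screen 1 comes first, and "with nivolumab" means with lymphocytes and nivolumab. The libraries count gRNAs in genomic DNA, so a low value means that few harvested cells carried the gRNA and says nothing of the expression of the gene. Loss of the gene product in these cells was not measured here. A library from before the coculture was not used here, so that a level holds both how often the gRNA stood in the library and how well its cells grew. The gRNA sequences and their cut sites were not used here, and genes are placed by the GENCODE v44 annotation of GRCh38.

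Peroxisomes oxidise very long chain and branched fatty acids, start the synthesis of ether lipids such as plasmalogens and handle hydrogen peroxide. Matrix enzymes are made in the cytosol, bound by the receptors PEX5 or PEX7, docked at the membrane by PEX13 and PEX14, and released inside. PEX5 is then ubiquitinated by RING ligases such as PEX2 and PEX10 and pulled back out by an ATPase complex that holds PEX6 and that PEX26 anchors to the membrane. Membrane proteins are inserted by PEX3, PEX16 and PEX19, and members of the PEX11 family elongate and divide the organelle. Inherited loss of most of these genes causes Zellweger spectrum disorders, in which brain and liver are affected.

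Cells with PEX gRNAs were about as frequent as cells with the average gRNA of the library. The level of a gRNA was taken as the log2 of its normalized reads plus 1, minus that of the median gRNA against olfactory receptor genes, which neuroblastoma cells are not known to need. On this scale the median PEX gRNA stood at -0.24 and -0.15 alone, -0.29 and -0.22 with lymphocytes, and -0.28 and -0.24 with nivolumab, in screen 1 and screen 2. The median of all gRNAs lay between -0.23 and -0.21 in the 6 libraries, inside the range of the PEX medians. For comparison, the 316 gRNAs against 79 cytosolic ribosomal protein genes, which dividing cells need, had medians between -1.49 and -1.38. In normalized reads, the median PEX gRNA had 812 to 891 across libraries, the median olfactory receptor gRNA 984 to 995. Within each library the deposited values are whole multiples of 1 step, and the steps add up to 58554842 to 79924251 per library. The steps would be reads if each was worth 1 read, which could not be checked, so that the true depth is not certain.

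Few PEX gRNAs stood far below the reference. Between 2 and 10 of the 68 lay at least 1 log2 unit below the olfactory receptor median in a library, where 15.8% to 17.9% of all gRNAs did. In all 6 libraries 2 of 68 did so, against 10.7% of all gRNAs, and PEX5L_4 was among them. PEX5L_4 had 93.2 and 151 normalized reads alone, 99.7 and 93.5 with lymphocytes and 179 and 104 with nivolumab. It lay at least 1 log2 unit below the reference in every library, also in the absence of lymphocytes, and no other PEX5L gRNA did. PEX5L_2 was below the reference in every library as well, at -1.24 to -0.55. Among the 4 gRNAs of a PEX gene the mean level spanned a median of 1.17 log2 units (range 0.54 to 4.96), whereas the median PEX gRNA moved by 0.40 across the 6 libraries, as did the median gRNA overall. The gRNAs of 1 gene thus differed more from each other than 1 gRNA did across libraries.

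The gene level, the median over 4 gRNAs, averaged -0.28 for the median PEX gene, with 15 of 17 below 0 against 69.9% of all genes. Levels of all genes had a median of -0.21. No PEX gene reached the ribosomal protein median of -1.44, and the range ran from -0.68 for PEX19 to 0.13 for PEX2. These levels were not tested, because a library from before the coculture was not used here.

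Among the cargo receptors, PEX5, which binds the common C-terminal targeting signal, had gene levels of -0.24 and -0.40 alone, -0.28 and -0.58 with lymphocytes, and -0.31 and -0.47 with nivolumab. PEX7, the receptor for the N-terminal signal, had gene levels of -0.50 and -0.69 alone, -0.58 and -0.40 with lymphocytes, and -0.68 and -0.82 with nivolumab. PEX5L, a PEX5 paralogue expressed in brain and known as a partner of HCN channels, had gene levels of -0.35 and -0.51 alone, -0.28 and -0.62 with lymphocytes, and -0.49 and -0.61 with nivolumab. Groups are said to overlap, or not, over their libraries without regard to the pairing within screens. PEX5, PEX7 and PEX5L were all below the olfactory receptor median in every library, PEX7 the furthest on average. Their condition groups overlapped except that PEX7 was lower with nivolumab than with lymphocytes. Of the docking proteins, PEX13 had gene levels of -0.19 and -0.14 alone, -0.16 and -0.23 with lymphocytes, and -0.12 and -0.10 with nivolumab. PEX14, which binds PEX5 at the membrane, had gene levels of -0.03 and -0.21 alone, -0.26 and -0.33 with lymphocytes, and 0.11 and 0.02 with nivolumab. Both docking proteins had their highest levels with nivolumab, PEX14 without overlap and PEX13 by less than the gap between its replicates in either other group.

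The RING ligases spanned both sides of the reference. PEX2 had gene levels of 0.13 and 0.07 alone, 0.17 and 0.15 with lymphocytes, and 0.05 and 0.21 with nivolumab, above the olfactory receptor median in all 6 libraries. PEX10 had gene levels of -0.46 and -0.25 alone, -0.45 and -0.34 with lymphocytes, and -0.33 and -0.47 with nivolumab. PEX2 was lowest and highest in the libraries with nivolumab, and PEX10 overlapped between the groups. In the exportomer, the complex that extracts PEX5, the ATPase PEX6 had gene levels of -0.28 and -0.16 alone, -0.30 and -0.16 with lymphocytes, and -0.46 and -0.23 with nivolumab. The anchor PEX26 had gene levels of -0.49 and -0.26 alone, -0.49 and -0.25 with lymphocytes, and -0.59 and -0.51 with nivolumab. PEX6 overlapped between the groups, and PEX26 was lowest with nivolumab by a margin smaller than the gaps between its replicates.

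Membrane assembly held the lowest gene. PEX19, the cytosolic chaperone that carries membrane proteins, had gene levels of -0.57 and -0.83 alone, -0.72 and -0.56 with lymphocytes, and -0.63 and -0.79 with nivolumab. Its membrane receptor PEX3 had gene levels of -0.21 and -0.10 alone, -0.44 and -0.26 with lymphocytes, and -0.45 and -0.24 with nivolumab. PEX16, which recruits PEX3, had gene levels of -0.21 and -0.10 alone, -0.33 and 0.04 with lymphocytes, and -0.26 and -0.25 with nivolumab. PEX3 was lower in all 4 cocultures than in both libraries alone, PEX19 overlapped, and PEX16 was lower with nivolumab than alone by less than the gap between the libraries alone. In the PEX11 family, PEX11A had gene levels of -0.11 and -0.09 alone, -0.05 and -0.06 with lymphocytes, and -0.23 and -0.07 with nivolumab. PEX11G had gene levels of 0.03 and -0.01 alone, -0.07 and 0.00 with lymphocytes, and 0.20 and 0.09 with nivolumab. PEX11A stood below PEX11G in all libraries but that with lymphocytes in screen 1, and PEX11G was highest with nivolumab.

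The first comparison asked whether cells with PEX gRNAs became more or less frequent once lymphocytes were added. No such change was detected. The score of a gene is the median over its gRNAs of the log2 ratio within a screen. It can differ in sign from the change of the gene level, which is a median of levels. In screen 2 PEX3 had a score of 0.01, with gene levels of -0.10 alone and -0.26 with lymphocytes. The 17 scores averaged over screens ran from -0.14 for PEX14 to 0.11, with a median of -0.01 against 0.00 for all genes. In limma with adjustment over all 19364 genes, 0 of 17 PEX genes reached an adjusted p under 0.05, as did 0% of all genes, and the smallest adjusted p of a PEX gene was 0.925. At an unadjusted p under 0.05 there was 1 of 17, PEX14, against 5.31% of all genes. Scores lay below 0 in both screens for 3 of 17 PEX genes against 25.8% of all genes, and above 0 in both for 4 of 17 against 24.2%. The 95% intervals of the PEX genes reached from -0.28 to 0.32, so that larger changes of a gene score lie outside them. Each test rests on 2 ratios per gene, and limma shared its variance across all genes (19364 degrees of freedom) as a trend on abundance. The SE, intervals and p-values thus reflect the spread between these 2 screens only, taken over all genes. They do not measure how well the 2 screens agreed for a single gene.

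PEX14 (chr1:10472288-10630758, plus strand), the docking protein, had the lowest mean. Its first gRNA, PEX14_1, had 598 and 617 normalized reads alone, 499 and 511 with lymphocytes and 667 and 546 with nivolumab. PEX14_2 had 2093 and 1855 normalized reads alone, 2127 and 2212 with lymphocytes and 1894 and 1937 with nivolumab. The first was lower with lymphocytes in both screens, the other was higher. PEX14_3 had 691 and 608 normalized reads alone, 664 and 496 with lymphocytes and 832 and 776 with nivolumab. PEX14_4 had 1365 and 1179.9 normalized reads alone, 1035 and 1203 with lymphocytes and 1372 and 1297 with nivolumab. With lymphocytes these overlapped the libraries alone, although PEX14_3 was lower than alone within each screen. The score of PEX14 was -0.17 in screen 1 and -0.12 in screen 2, a mean of -0.14 (SE 0.07, 95% interval -0.28 to -0.0044, n = 2 screens, adjusted p = 0.925).

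PEX3 (chr6:143450805-143490616, plus strand), the membrane receptor of PEX19, came next. PEX3_1 had 759 and 885 normalized reads alone, 650.4 and 876 with lymphocytes and 723 and 827 with nivolumab. PEX3_2 had 800.2 and 679.7 normalized reads alone, 759 and 695 with lymphocytes and 724 and 583 with nivolumab. Neither separated the groups, although PEX3_1 was lower than alone within each screen. PEX3_3 had 1304 and 1683 normalized reads alone, 1421 and 1799 with lymphocytes and 1437 and 1821 with nivolumab. PEX3_4 had 908 and 955 normalized reads alone, 707 and 773 with lymphocytes and 675 and 839 with nivolumab. PEX3_3 differed by screen more than by condition, and PEX3_4 was lower in all 4 cocultures than in either library alone. The score of PEX3 was -0.16 in screen 1 and 0.01 in screen 2, a mean of -0.07 (SE 0.07, 95% interval -0.22 to 0.07, n = 2 screens, adjusted p = 0.998).

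PEX5L (chr3:179794958-180037053, minus strand) followed. PEX5L_1 had 1641 and 1501 normalized reads alone, 1382 and 1373 with lymphocytes and 1349 and 1394 with nivolumab. PEX5L_2 had 675 and 479 normalized reads alone, 657 and 457 with lymphocytes and 436 and 417 with nivolumab. PEX5L_3 had 898 and 997 normalized reads alone, 1027 and 893 with lymphocytes and 1133 and 995 with nivolumab. PEX5L_1 was highest in the cells alone, PEX5L_2 lowest with nivolumab, and PEX5L_3 overlapped throughout. Within each screen PEX5L_1 and PEX5L_2 were lower with lymphocytes than alone. Its score of 0.02 in screen 1 and -0.14 in screen 2 differed in sign between screens, with a mean of -0.06 (SE 0.09, 95% interval -0.24 to 0.12, n = 2 screens, adjusted p = 0.998).

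At the upper end stood PEX26 (chr22:18077923-18105396, plus strand), the membrane anchor of the exportomer. PEX26_1 had 431 and 388 normalized reads alone, 507 and 387 with lymphocytes and 467 and 445 with nivolumab. PEX26_2 had 562 and 734 normalized reads alone, 578 and 648 with lymphocytes and 544 and 586 with nivolumab. These overlapped between cells alone and with lymphocytes. PEX26_3 had 886 and 919 normalized reads alone, 868 and 1052 with lymphocytes and 794 and 820.1 with nivolumab. PEX26_4 had 1225 and 1034 normalized reads alone, 1262 and 1265 with lymphocytes and 1094 and 1117 with nivolumab. With lymphocytes PEX26_4 was higher than alone in both screens, and PEX26_3 overlapped. The score was 0.03 in screen 1 and 0.10 in screen 2, a mean of 0.07 (SE 0.08, 95% interval -0.09 to 0.23, n = 2 screens, adjusted p = 0.998).

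PEX19 (chr1:160276807-160286348, minus strand) had a score of 0.05 in screen 1 and 0.04 in screen 2, a mean of 0.05 (SE 0.09, 95% interval -0.12 to 0.22, n = 2 screens, adjusted p = 0.998). PEX19_1 had 1015 and 1259 normalized reads alone, 1035 and 1204 with lymphocytes and 1098 and 1059 with nivolumab. PEX19_2 had 427 and 365 normalized reads alone, 533 and 292 with lymphocytes and 452 and 378 with nivolumab. The latter was higher with lymphocytes in screen 1 and lower in screen 2. PEX19_3 had 546 and 524 normalized reads alone, 581 and 685 with lymphocytes and 593 and 552 with nivolumab. PEX19_4 had 813 and 583 normalized reads alone, 626 and 645 with lymphocytes and 689.6 and 589 with nivolumab. Only PEX19_3 among the 4 was higher in each coculture than in each library alone. Another 11 PEX genes had mean scores between -0.06 and 0.03.

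In limma over all gRNAs, 0 of 68 PEX gRNAs passed an adjusted p of 0.05, against 0.0155% of all gRNAs, and 5 of 68 had an unadjusted p under 0.05, against 5.32%. The smallest adjusted p was that of PEX2_1, a gRNA against a RING ligase that was chosen for mention after its values were seen. PEX2_1 had 1014 and 1049 normalized reads alone, 949.6 and 555 with lymphocytes and 918 and 785 with nivolumab. Its log2 ratios were -0.10 and -0.91 (mean -0.51, SE 0.14, adjusted p = 0.248), and the low value of screen 2 carried most of the mean. The other 3 PEX2 gRNAs were higher with lymphocytes or overlapped. Within each screen PEX2_4 was lower with lymphocytes (log2 ratios -0.18 and -0.11), and PEX2_2 and PEX2_3 were higher. The gene score of PEX2 was -0.05 in screen 1 and -0.01 in screen 2. With lymphocytes 7 of 68 PEX gRNAs were higher than alone without overlap of the libraries, against 12.5% of all gRNAs, and 8 of 68 were lower, against 12.9%. Paired within screens, 19 of 68 had a log2 ratio below 0 in both, against 25.4% of all gRNAs, and 18 of 68 above 0 in both, against 24.6%.

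The second comparison set the coculture with nivolumab against the same libraries of IMR32 cells alone, so that its values are not independent of those above. Mean scores of the 17 PEX genes ran from -0.13 for PEX3 to 0.14, with a median of -0.02 against 0.00 for all genes. In limma, 0 of 17 reached an adjusted p under 0.05, as did 0% of all genes, the smallest adjusted p of a PEX gene was 0.996, and 0 of 17 had an unadjusted p under 0.05, against 5.01% of all genes. Scores lay below 0 in both screens for 6 of 17 against 25.5% of all genes, and above 0 in both for 4 of 17 against 24.7%. Intervals of the PEX genes reached from -0.27 to 0.36.

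The lowest means were those of PEX3 and of the exportomer ATPase PEX6. PEX3 had a score of -0.11 in screen 1 and -0.14 in screen 2, a mean of -0.13 (SE 0.07, 95% interval -0.27 to 0.02, n = 2 screens, adjusted p = 0.996). Within each screen PEX3_1, PEX3_2 and PEX3_4 were lower with nivolumab than alone and PEX3_3 was higher, and only PEX3_4 separated the libraries without overlap. PEX6 (chr6:42963865-42979181, minus strand) had a score of -0.06 in screen 1 and -0.16 in screen 2, a mean of -0.11 (SE 0.08, 95% interval -0.26 to 0.04, n = 2 screens, adjusted p = 0.996). PEX6_1 had 597 and 476 normalized reads alone, 787 and 518 with lymphocytes and 632 and 387 with nivolumab. PEX6_2 had 867 and 873 normalized reads alone, 828 and 965 with lymphocytes and 732 and 885 with nivolumab. Neither separated cells alone from those with nivolumab. PEX6_3 had 767 and 898 normalized reads alone, 660.0 and 799 with lymphocytes and 703 and 796 with nivolumab. PEX6_4 had 1609 and 1702 normalized reads alone, 1529.8 and 1668 with lymphocytes and 1604 and 1545 with nivolumab. PEX6_4 was lower with nivolumab than alone in every library, by a margin of a few normalized reads, and PEX6_3 overlapped but was lower within each screen.

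PEX11G and PEX14 had means toward the upper end. PEX14 had a score of 0.08 in screen 1 and 0.10 in screen 2, a mean of 0.09 (SE 0.07, 95% interval -0.05 to 0.23, n = 2 screens, adjusted p = 0.998). PEX11G (chr19:7476875-7497449, minus strand) had a score of 0.16 in screen 1 and 0.08 in screen 2, a mean of 0.12 (SE 0.07, 95% interval -0.02 to 0.25, n = 2 screens, adjusted p = 0.996). Neither passed the test. PEX11G_1 had 1343 and 1413 normalized reads alone, 1407 and 1329 with lymphocytes and 1387 and 1251 with nivolumab. PEX11G_2 had 927 and 993 normalized reads alone, 1058 and 928 with lymphocytes and 1267 and 932 with nivolumab. Both overlapped in all conditions, although with nivolumab over lymphocytes the log2 ratios were -0.01 and -0.09 for PEX11G_1 and 0.27 and 0.00 for PEX11G_2. PEX11G_3 had 838 and 735 normalized reads alone, 768 and 866 with lymphocytes and 1012 and 958 with nivolumab. PEX11G_4 had 1102 and 967 normalized reads alone, 849 and 1045 with lymphocytes and 734 and 1148 with nivolumab. PEX11G_3 was higher with nivolumab than in the other 4 libraries, whereas PEX11G_4 was lowest with nivolumab in screen 1 and highest with it in screen 2.

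Of the PEX gRNAs, 0 of 68 passed an adjusted p of 0.05 in limma, against 0.0749% of all gRNAs, and 5 of 68 had an unadjusted p under 0.05, against 5.38%. With nivolumab 7 of 68 were higher than alone without overlap, against 12.8% of all gRNAs, and 10 of 68 were lower, against 12.7%. Ratios lay below 0 in both screens for 18 of 68, against 25% of all gRNAs, and above 0 in both for 14 of 68, against 24.9%. PEX7_2 had the smallest adjusted p, with log2 ratios of -0.29 and -0.63 (mean -0.46, SE 0.15, adjusted p = 0.519).

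The third comparison, nivolumab against coculture without it, bears on the question the study asked. It shares the lymphocyte libraries with the first comparison and the nivolumab libraries with the second. Here PEX14 had the highest mean score of the 17 and PEX7 the lowest, at 0.24 and -0.16, and the median PEX gene stood at 0.03 against 0.00 for all genes. In limma, 0 of 17 PEX genes reached an adjusted p under 0.05, against 0.0103% of all genes, and the smallest adjusted p of a PEX gene was 0.829. At an unadjusted p under 0.05 there was again 1 of 17, PEX14, against 5.1% of all genes. Scores lay below 0 in both screens for 5 of 17 against 24.2% of all genes, and above 0 in both for 6 of 17 against 25.2%. Intervals of the PEX genes reached from -0.33 to 0.37.

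The study selected depleted genes by a score more than 2 SD below the mean of all genes within a screen. Applied to the scores computed here, the limit was -0.21 in screen 1, which 2.45% of all genes passed, and -0.24 in screen 2, which 2.52% passed. Of the 17 PEX genes 0 passed it in either screen. PEX7, at -0.20, came closest in screen 1. Above the mean plus 2 SD, 0.23 in each screen, stood 2.44% of all genes in screen 1 and 2.44% in screen 2, among them 1 PEX gene, PEX14, in screen 1 and 0 in screen 2.

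PEX14 had a score of 0.37 in screen 1 and 0.10 in screen 2, a mean of 0.24 (SE 0.07, 95% interval 0.10 to 0.37, n = 2 screens, adjusted p = 0.829). That mean lay above those of 99.7% of all genes and was carried by screen 1, since screen 2 alone gave 0.10. As the reads above show, PEX14_1, PEX14_3 and PEX14_4 were higher with nivolumab than with lymphocytes without overlap, and PEX14_2 was lower. The log2 ratios of PEX14_3 were 0.33 and 0.64 (mean 0.49, SE 0.16, adjusted p = 0.595). Those of PEX14_4 were 0.41 and 0.10 (mean 0.26, SE 0.11, adjusted p = 0.885). The gene levels of PEX14 alone, -0.03 and -0.21, lay between those with lymphocytes and those with nivolumab, with no overlap. PEX13, the other docking protein, had a score of -0.01 in screen 1 and 0.07 in screen 2.

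PEX11G had a score of 0.13 in screen 1 and 0.07 in screen 2, a mean of 0.10 (SE 0.07, 95% interval -0.04 to 0.23, n = 2 screens, adjusted p = 0.996). Its paralogue PEX11A had a score of -0.03 in screen 1 and -0.01 in screen 2. PEX11G was above 0 and PEX11A below 0 in both screens, and the interval of PEX11G spanned 0.

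PEX7 (chr6:136822564-136913934, plus strand), the receptor that brings in a small set of enzymes of ether lipid synthesis and fatty acid oxidation, had a score of -0.20 in screen 1 and -0.12 in screen 2, a mean of -0.16 (SE 0.09, 95% interval -0.33 to 0.01, n = 2 screens, adjusted p = 0.977). PEX7_1 had 980.0 and 926 normalized reads alone, 1107 and 882 with lymphocytes and 970.0 and 880.4 with nivolumab. PEX7_2 had 806 and 836 normalized reads alone, 774 and 822 with lymphocytes and 658 and 539.5 with nivolumab. PEX7_2 was lower with nivolumab than in the other 4 libraries, and PEX7_1 overlapped. PEX7_3 had 609 and 448 normalized reads alone, 575 and 676 with lymphocytes and 581 and 576 with nivolumab. PEX7_4 had 379.6 and 403 normalized reads alone, 503 and 412 with lymphocytes and 416 and 432 with nivolumab. Neither separated the cocultures. Within each screen PEX7_1 and PEX7_2 were lower with nivolumab than with lymphocytes, and PEX7_3 and PEX7_4 differed in sign. The log2 ratios of PEX7_2 were -0.22 and -0.61 (mean -0.42, SE 0.15, adjusted p = 0.714). PEX5, the other receptor, had a score of 0.01 in screen 1 and 0.04 in screen 2.

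PEX26 had a score of -0.11 in screen 1 and -0.17 in screen 2, a mean of -0.14 (SE 0.08, 95% interval -0.30 to 0.02, n = 2 screens, adjusted p = 0.984). Its gRNAs PEX26_3 and PEX26_4 were lower with nivolumab than with lymphocytes without overlap, as given above, and PEX26_2 was lower within each screen. PEX6, which PEX26 anchors, had a score of -0.05 in screen 1 and -0.12 in screen 2, a mean of -0.08 (SE 0.07, 95% interval -0.23 to 0.06, n = 2 screens, adjusted p = 0.996). Of its gRNAs, PEX6_1 and PEX6_2 were lower with nivolumab than with lymphocytes within each screen. PEX6 and PEX26 were thus below 0 in both screens, and neither passed the test. The RING ligases PEX2 and PEX10 had mean scores of 0.04 and 0.00, PEX3 stood at -0.03 and PEX16 at 0.05.

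Over single gRNAs, 0 of 68 passed an adjusted p of 0.05 in limma, against 0.0349% of all gRNAs, and 6 of 68 had an unadjusted p under 0.05, against 5.2%. The smallest adjusted p of a PEX gRNA was 0.595. With nivolumab 8 of 68 PEX gRNAs were higher than with lymphocytes without overlap, against 12.9% of all gRNAs, and 8 of 68 were lower, against 12.4%. Ratios lay below 0 in both screens for 16 of 68, against 24.7% of all gRNAs, and above 0 in both for 17 of 68, against 25.3%. Over the 3 comparisons and both directions, 10.3% to 14.7% of the PEX gRNAs were apart without overlap, a range that encloses the shares of all gRNAs.

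Beyond the PEX genes, a list of 54 genes of peroxisomal metabolism, transport, division and turnover was measured with 216 gRNAs. In limma 0 of 54 reached an adjusted p under 0.05 in any of the 3 comparisons, with smallest adjusted p of 0.995, 0.968 and 0.948 in the order above, where 0%, 0% and 0.0103% of all genes did. At an unadjusted p under 0.05 the counts were 0, 2 and 2 of 54, against 5.31%, 5.01% and 5.1% of all genes. With nivolumab against lymphocytes, the 3 lowest were DDO, SCP2 and BAAT. DDO, D-aspartate oxidase, scored -0.14 in screen 1 and -0.18 in screen 2 (adjusted p = 0.97). SCP2, a thiolase and sterol carrier that peroxisomes import, scored -0.10 in screen 1 and -0.20 in screen 2 (adjusted p = 0.977). BAAT, the enzyme that conjugates bile acids, scored -0.22 in screen 1 and 0.00 in screen 2 (adjusted p = 0.996). BAAT was near 0 in screen 2, so that its mean rests on screen 1. ECH1 and PXMP4 were among the 3 highest. ECH1, an isomerase of fatty acid oxidation, scored 0.18 in screen 1 and 0.09 in screen 2 (adjusted p = 0.948). PXMP4, a peroxisomal membrane protein, scored 0.22 in screen 1 and -0.03 in screen 2 (adjusted p = 0.996). Scores below 0 in both screens were found for 8 of 54 (14.8%) and above 0 in both for 11 of 54 (20.4%), beside 24.2% and 25.2% of all genes, and this difference was not tested. The 4 genes of ether lipid synthesis, GNPAT, AGPS, FAR1 and FAR2, had a median score of 0.04, with 0 below and 0 above 0 in both screens.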

How the data were processed

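Per the labels and the study's methods, gRNA cassettes were amplified from genomic DNA of the harvested cells and sequenced, and MAGeCK was used, with its version not given in the sources used here. The deposited values are a signal, reads per gRNA normalized by the authors to the same total in every library. Whether reads with the same molecular identifier were collapsed is not given in the sources used here, so that the reads may not be independent molecules and counting error is only part of the error. All 6 libraries were used. No pair of libraries agreed within sampling noise, with the steps of the values taken as reads (chi-square over its degrees of freedom from 7.49 to 14.6). Pairs of groups within a screen gave 7.49 to 8.71, and the 2 replicates of a group gave 13.0 to 14.6. Overlap of groups, as used above, is judged across both screens.

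From the deposited signal, log2 values with a pseudocount of 1 were centred on the median olfactory receptor gRNA of each library, and log2 ratios were taken within each screen. Such ratios understate changes of gRNAs with few reads. Gene scores are medians over gRNAs. The 2 ratios per gene or gRNA were tested against 0 with limma 3.58.1 in R 4.3.3 (eBayes with a trend on abundance). P-values were adjusted by Benjamini-Hochberg over all genes or gRNAs, after a check of the gene test on simulated data with known changes. The check required recovery of most changes of 1 log2 unit, larger than any PEX gene score here, and its libraries held no shared screen effect. Pairing by replicate number comes from the study's screens. Libraries of the same number deviated together, with correlations of 0.49 to 0.50 across gRNAs. The members, the pathway list and the roles were chosen with earlier results of these data known. By the rule for named genes, all PEX genes are named, per comparison the 3 lowest and 3 highest are given by gRNA, and of the pathway list the 3 lowest and 3 highest with nivolumab over lymphocytes are named. Some genes under this rule are not reported here, and counts and ranges over the lists include them. Alternatives changed the pseudocount (to 50), the scaling, the summary over gRNAs (to the mean), a filter on gRNAs under 100 normalized reads, the pairing and the replicates used. Levels and ratios were computed in pandas 2.3.3 under Python 3.11.15.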

Additional observations from a re-analysis of the deposited data

How the results depend on the processing

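The count of PEX genes and of PEX gRNAs that passed the test stayed at 0 in all 3 comparisons under every alternative that was fitted, and so did that of the 54 pathway genes. Over all genes, the mean over gRNAs gave 1 call with lymphocytes over alone and 3 with nivolumab over alone, against 0 each with the median. Without the replicate block the calls with nivolumab over lymphocytes went from 2 to 0 of all genes, and the block changed no call of a PEX gene. With lymphocytes over alone, the mean over gRNAs gave 7 PEX genes below 0 in both screens in place of 3, and a median PEX score of -0.033, and the fit without the replicate block gave a median of -0.035. Leaving out 1 replicate gives the score of 1 screen with no test. Over the 2 screens taken singly, the PEX genes below 0 numbered 8 to 8 with lymphocytes over alone, 8 to 11 with nivolumab over alone and 6 to 10 with nivolumab over lymphocytes. Those above 0 numbered 9 to 9, 6 to 9 and 7 to 11, and the median PEX score with lymphocytes over alone 0.0063 to 0.022. Centred on the median of all gRNAs, the median PEX gRNA stood at -0.030 and 0.080 alone, -0.076 and -0.00051 with lymphocytes, and -0.072 and -0.020 with nivolumab, so that its place below 0 depends on the reference. Without gRNAs under 100 normalized reads it was -0.25 with nivolumab in screen 1. Of the 51 scores of single PEX genes, 7 changed sign with the mean over gRNAs, 7 without the replicate block, 1 with the filter, 11 and 12 in a single screen, and 0 with the other pseudocount or with totals as deposited. A count model on reads recovered from the deposited values was planned and not run, because too few low values were present to check the recovery. The cause of these differences was not tested. What depth limits was not tested, and each test had 2 screens.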
